A study of Mus musculus with 4 samples.

Results

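The cytoplasmic ribosomal protein genes were examined in RNA-seq of differentiating female mouse embryonic stem cells (mESCs). They were chosen by symbol alone: Rpl or Rps followed by a number and at most 1 further letter, together with Rpsa, Rplp0, Rplp1, Rplp2 and Fau, leaving out pseudogene symbols and the Rps6k kinases. The rule found 82 of the 25965 listed genes, 49 of the large and 33 of the small ribosomal subunit, spread over 20 chromosomes. Of these, 81 passed a filter on low values (log2 CPM that averaged 0 or more, CPM being a gene's reads relative to the reads of its library), as did 13264 genes in all. The gene that did not pass was Rpl3l.

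All 4 libraries came from female mESCs of an F1 cross of FVB and CAST mice, with 1 library per group. The day 0 library came from cells expanded in 2i medium, and the other 3 came from cells weaned into DME HiHi medium and harvested after differentiation to day 6. These 3 carried a nonsilencing hairpin (Nons) or 1 of 2 hairpins against Smarca4, the ATPase of the BAF nucleosome remodelling complex (Smarca4.4 and Smarca4.6), delivered by virus on day 2 with puromycin selection from day 3. The hairpins were read from the titles, since a genotype field of the labels gives Smarcc knockdown for each day 6 library, Nons included. Transduction on day 2 is stated for the treatment as a whole, while the genotype field of the day 0 library gives a nonsilencing control and its title names no hairpin, so whether the day 0 cells carried one is unclear. Day 0 and Nons differ in time and medium, and possibly in transduction and selection, which cannot be told apart.

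A ribosome is built from RNA and a single copy of most of these proteins, and growing cells spend much of their transcription on it. The small subunit decodes the mRNA and the large subunit joins the amino acids. Most ribosomal protein mRNAs begin with a C and a run of pyrimidines, the 5′ terminal oligopyrimidine (TOP) tract, through which mTORC1 and Larp1 control their translation. Mammalian genomes hold many processed pseudogenes of these genes, and several of them have a second, more narrowly expressed copy elsewhere. Rpl10l and Rpl39l, best known from the testis, are autosomal copies of X-linked genes.

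The start of the gene is shown for the members on which the values below turn: the 5 with the highest difference between Nons and day 0, the 3 lowest in each knockdown library, the 4 X-linked members and their autosomal copies Rpl10l and Rpl39l. Rpl22 has 2 annotated starts. Each sequence is 30 bases of RefSeq on GRCm38.p6, 15 before the annotated start and 15 from it on, written 5′ to 3′ on the gene's strand. Capitals mark a run of C followed by at least 4 pyrimidines that begins within 5 bases of the annotated start, and a line without capitals holds no such run.
Rpl13a, chr7:45128731-45128760, minus strand: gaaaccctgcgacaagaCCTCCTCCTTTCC
Rps27, chr3:90213634-90213663, minus strand: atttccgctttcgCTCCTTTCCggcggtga
Rps2, chr17:24720048-24720077, plus strand: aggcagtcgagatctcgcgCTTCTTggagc
Rpl41, chr10:128549154-128549183, minus strand: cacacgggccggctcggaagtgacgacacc
Rpl22 start 1, chr4:152324421-152324450, plus strand: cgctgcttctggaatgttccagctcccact
Rpl22 start 2, chr4:152325711-152325740, plus strand: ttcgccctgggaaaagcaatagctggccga
Rps10, chr17:27635230-27635259, minus strand: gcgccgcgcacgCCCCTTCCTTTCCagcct
Fau, chr19:6057932-6057961, plus strand: tgcgcgcccccaCTTCTTCCTCTTTCTTga
Rpl39, chrX:37085208-37085237, minus strand: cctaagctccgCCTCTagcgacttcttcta
Rpl10, chrX:74270801-74270830, plus strand: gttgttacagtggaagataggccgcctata
Rps4x, chrX:102189377-102189406, minus strand: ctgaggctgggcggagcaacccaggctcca
Rpl36a, chrX:134585639-134585668, plus strand: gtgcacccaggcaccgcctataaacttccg
Rpl10l, chr12:66284387-66284416, minus strand: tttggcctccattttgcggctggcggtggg
Rpl39l, chr16:10170213-10170242, plus strand: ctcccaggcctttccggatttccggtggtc

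The promoter table held an entry for 62 of the 82 members. Those without one included Rpl3, Rpl7, Rpl8, Rpl17, Rpl21, Rpl23a, Rpl29, Rpl30, Rpl32, Rpl36, Rplp1, Rps14, Rps20, Rps27a and Rps29. A run of this kind counted from a C at the annotated start base itself was found in 14 members (22.6%), against 2.77% of the 17562 listed genes with an entry. It began within 5 bases of the start in 29 members (46.8%), against 21.7% of the listed genes. The 69 mitochondrial ribosomal protein genes with an entry, whose products work in another ribosome, had 0 such runs from a C at the start base and 24.6% within 5 bases. The letters CCGGAAG or CTTCCGG, an ETS family motif read on both strands, were sought in the 300 bases around the start. They were found in 26 members (41.9%), against 13.0% of the listed genes and 37.7% of the 69 mitochondrial ribosomal protein genes. The letters AAGATGG or CCATCTT, found in the motif of Yy1, were there in 10 members (16.1%). Of the listed genes 7.37% held them, and of the mitochondrial ribosomal protein genes 18.8%. These matches are a description of letters in a window, and a start that lies a few bases from the annotated one would be missed.

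The members were also compared by this feature in expression. The 14 members with a run from the start base had a median difference of 0.69 on the log2 CPM scale between Nons day 6 and day 0, and the 47 other members with an entry that passed the filter had 0.67. These groups had -0.29 and -0.27 for Smarca4.4 minus Nons and both -0.18 for Smarca4.6 minus Nons. The 29 members with a run within 5 bases of the start had a median of 0.81, and the 32 without one that passed the filter had 0.56. Among those without one were Rpl10l, Rpl39l and Rpl37a, all below 0. The X-linked Rps4x and Rpl10, also below 0, and Rpl36a were there too. The part of X linkage and of the copies in this gap was not tested. For the second split the medians were -0.28 and -0.23 for Smarca4.4 minus Nons, and -0.17 and -0.18 for Smarca4.6 minus Nons.

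The libraries held 18599402 reads at day 0, 45759793 with Nons, 47143739 with Smarca4.4 and 36495575 with Smarca4.6, so that 3 reads correspond to 0.161 CPM at day 0 and to at most 0.0822 CPM at day 6. Smarca4 itself had a log2 CPM of 7.93 at day 0, 7.84 with Nons, 7.04 with Smarca4.4 and 7.44 with Smarca4.6, the directions of the labels. The 8 mESC markers summed to 5867 CPM at day 0 and to between 1014 and 1274 CPM at day 6, while 3 epithelial or trophectoderm markers went from 5.59 CPM to between 1300.0 and 1652 CPM. At day 6 that sum is nearly all Krt8 (log2 CPM of 9.91 with Nons) and Krt18 (9.11), while Cdx2 was at 0.48 at day 0 and -2.19 with Nons. Of the mESC markers Esrrb had log2 CPM values of 8.84 (day 0) and 3.10 (Nons), but Pou5f1 was at 9.50 and 9.84. No marker of the mESC, neural, endoderm or epithelial lists was at 0 reads in any library, and of the smooth muscle or fibroblast markers 1, Acta2, was at 0 reads at day 0. There is no replicate of any group, so the spread between replicates is unknown and no test was possible. The 95% intervals are exact intervals of the reads and cover counting error only, and a difference compares 2 libraries rather than 2 conditions.

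Ribosomal protein genes took the smallest share of reads at day 0 and the largest in Nons at day 6. They held 4.55% of the reads at day 0 (95% interval 4.54% to 4.56%), 7.34% with Nons (7.34% to 7.35%), 6.06% with Smarca4.4 (6.06% to 6.07%) and 6.47% with Smarca4.6 (6.46% to 6.47%). The share in Nons was 1.61 times that at day 0, and the shares in the knockdown libraries were 0.826 and 0.880 times that in Nons. CPM is a share of the library, so more mRNA of these genes per cell, less mRNA of other genes and a different mix of cells cannot be told apart. Markers of cell types also differed between libraries. Those of mESCs summed to 5867 CPM at day 0, 1274 CPM with Nons, 1014 CPM with Smarca4.4 and 1232 CPM with Smarca4.6. Those of smooth muscle or fibroblasts summed to 3.54 CPM at day 0, 1080 CPM with Nons, 804 CPM with Smarca4.4 and 684 CPM with Smarca4.6. Neural markers summed to 57.7 CPM at day 0, 387 CPM with Nons, 363 CPM with Smarca4.4 and 392 CPM with Smarca4.6. The neural sum at day 6 is nearly all Nes, with log2 CPM values of 5.45 (day 0) and 8.57 (Nons), while Pax6 (3.73 and 2.88) and Sox1 (-0.31 and -2.35) were lower with Nons. Endoderm markers summed to between 4.57 and 6.99 CPM, but single ones moved in opposite directions. Gata4 had log2 CPM values of -0.13 (day 0) and 1.16 (Nons), and Gata6 had 1.83 and -0.71. The proliferation markers Mki67 and Top2a summed to between 1159 and 1406 CPM. Mitochondrially encoded genes took 2.02% of the reads at day 0, 1.10% with Nons, 1.24% with Smarca4.4 and 1.03% with Smarca4.6, and the part of these genes and of the cell mix in the shares was not tested.

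Both subunits followed the same pattern. Genes of the large subunit held 2.56%, 4.09%, 3.39% and 3.59% of the reads in the order day 0, Nons, Smarca4.4, Smarca4.6, and genes of the small subunit held 1.99%, 3.25%, 2.67% and 2.87%. The summed CPM of the large subunit divided by that of the small subunit was 1.285, 1.258, 1.268 and 1.252 in the same order. The ratio thus stayed within a narrow band while the sum moved. The 60 symbols of ribosomal protein pseudogenes took 0.0962%, 0.149%, 0.129% and 0.129% of the reads, and were likewise lowest at day 0 and highest in Nons.

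**Figure D1:**
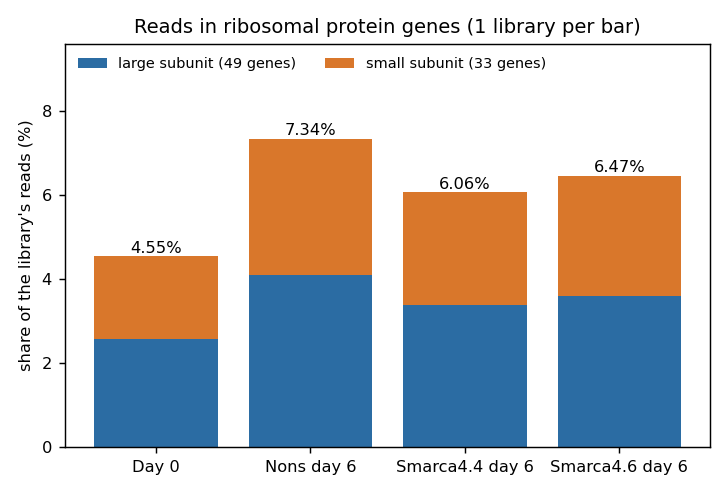
Share of each library's reads (percent, vertical axis from 0) in genes of the large subunit (lower segment) and the small subunit (upper segment), with 1 library per bar and the sum printed above it. The bar is lowest at day 0 (4.55%) and highest in Nons day 6 (7.34%), and both knockdown bars lie between them.

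Between day 0 and Nons day 6 the median ribosomal protein gene was 0.63 higher on the log2 CPM scale, against 0.03 for all genes that passed the filter. Of the 81 members, 75 (92.6%) were above 0, against 51.4% of all genes. The spread among them was small: the interquartile range of their differences was 0.37, against 1.22 for all genes. It was 0.79 for the 1410 other genes with a mean log2 CPM of at least 7. At least 2-fold higher were 15 members (18.5%), near the 19.6% of all genes, and 1 was at least 2-fold lower, against 12.3% of all genes. The share at least 2-fold higher was smaller among other well expressed genes, 9.15% of the 1410 with a mean log2 CPM of at least 7 and 11.7% of the 247 of these with up to 2000 exon bases. Medians were 0.59 for the 48 large subunit genes and 0.71 for the 33 small subunit genes.

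Rpl13a, a large subunit protein also known as a component of the GAIT complex that silences inflammatory mRNAs, differed most. Its log2 CPM was 9.81 at day 0, 11.57 with Nons, 11.19 with Smarca4.4 and 11.37 with Smarca4.6, a difference between Nons and day 0 of 1.76 (1.74 to 1.78). It was thereby among the 5 members with the most reads in each day 6 library, but not at day 0. The next 2 were the small subunit genes Rps27, with 7.76, 9.24, 8.84 and 9.19 in the same order, and Rps2, which lies near the mRNA entry site, with 8.24, 9.67, 9.20 and 9.27. Both were lowest at day 0 and highest in Nons, and they differed by 1.47 (1.43 to 1.52) and 1.43 (1.39 to 1.48). Rpl41, the smallest ribosomal protein, Rpl22 and Rpl12 were each 1.37 higher in Nons than at day 0. Rpl22 moved furthest in the order of the 81 members by level, by 24 places, where the median member moved 4. The other members at least 2-fold higher were Rps3 (1.29), Rpl11 (1.25), Rpl35 (1.16), Rps14 (1.11), Rps10 (1.10), Rps27a (1.08), Rps27l (1.07), Rpl31 (1.02) and Rpl17 (1.02), and Rpl34 lay just below the 2-fold line, at 1.997-fold.

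At the other end stood the 2 autosomal copies and 2 of the X-linked genes. After Rpl10l, at -3.74, the lowest differences were those of Rpl39l (-0.55), Rps4x (-0.42), Rpl21 (-0.33) and Rpl10 (-0.14). Only 1 further member that passed the filter was below 0, Rpl37a at -0.03, and its sign turned when libraries were scaled to the reads outside the members or to the upper quartile.

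**Figure D2:**
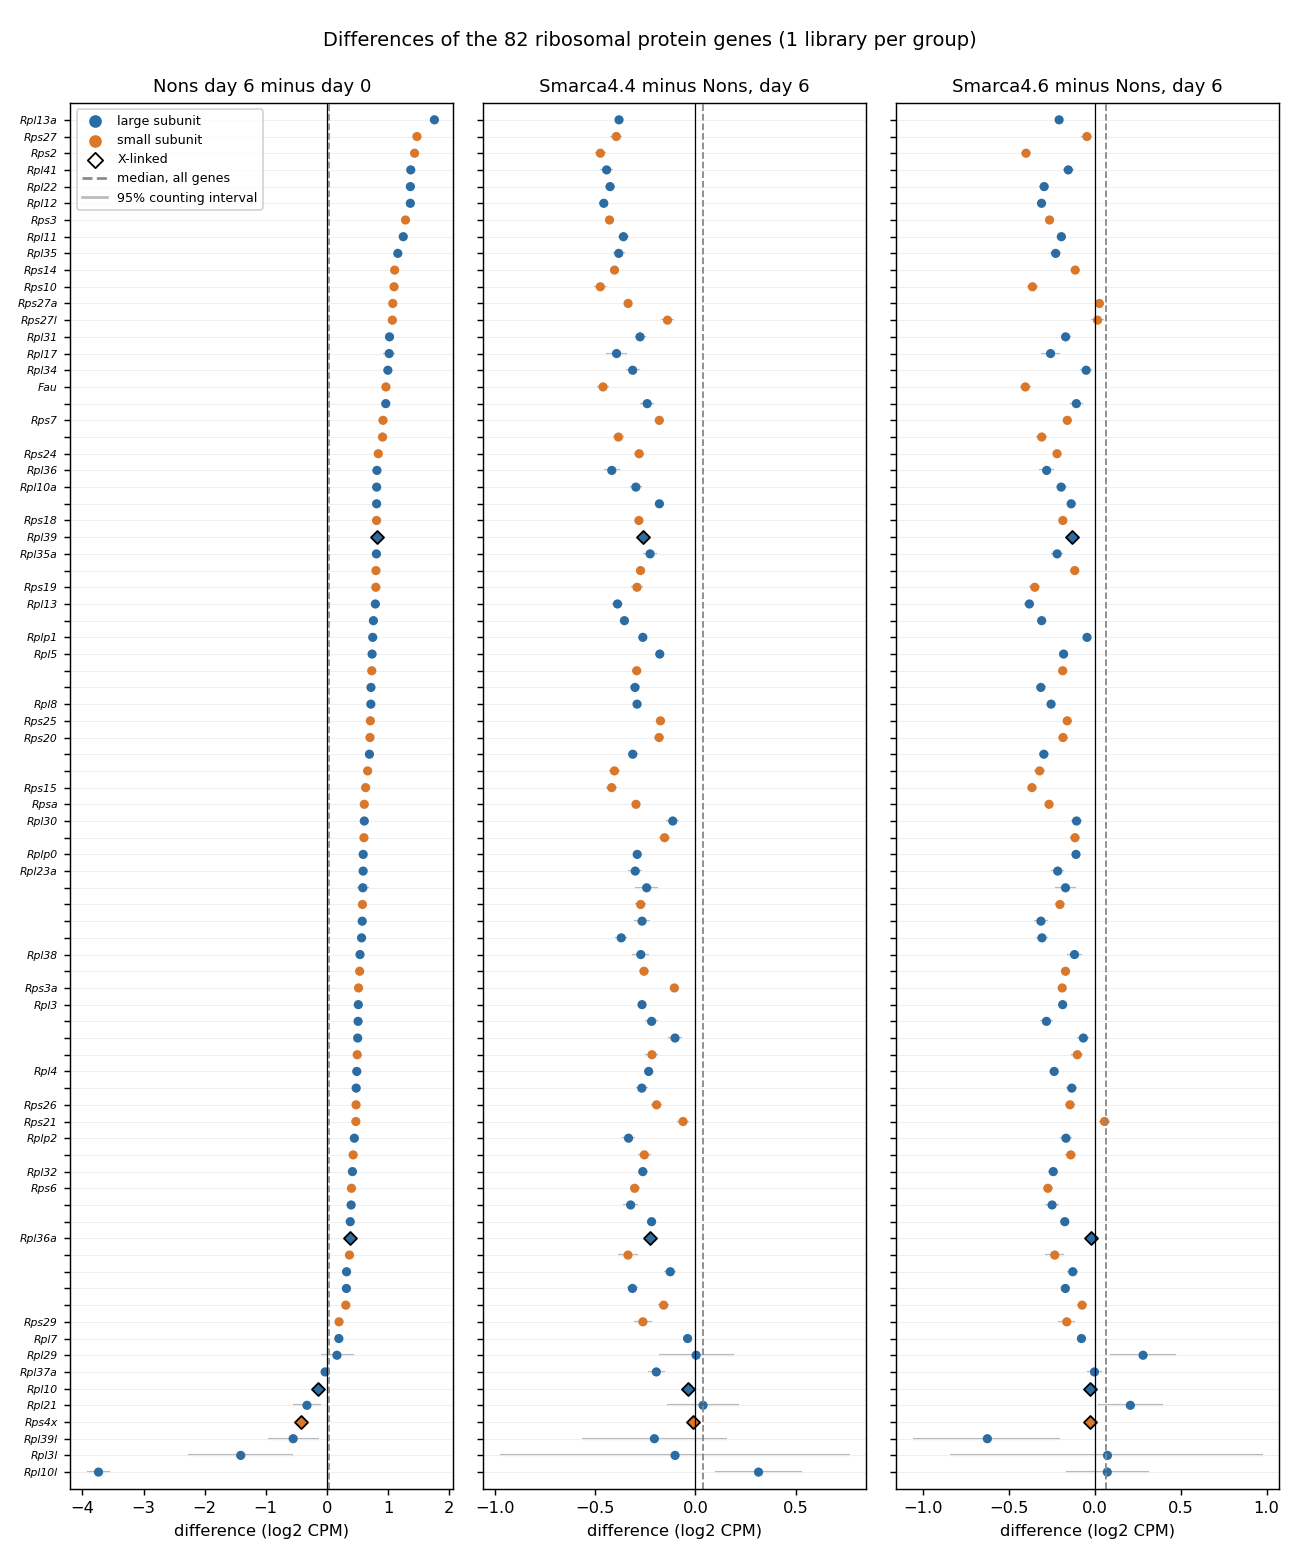
Differences in log2 CPM of the 82 ribosomal protein genes (1 gene per line, ordered by the left panel, with the genes named in the text labelled) for Nons day 6 minus day 0, Smarca4.4 minus Nons and Smarca4.6 minus Nons, with blue points for the large and orange for the small subunit, diamonds for X-linked genes, grey lines for 95% counting intervals and a dashed line for the median of all genes. Horizontal scales differ between panels. Most points lie right of 0 in the left panel and left of 0 in the other 2, and Rpl10l stands apart at -3.74 in the left panel.

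The members with known special functions were also read by role. The P stalk, which recruits the elongation factors, is formed by Rplp0, Rplp1, Rplp2 and Rpl12. Their differences between Nons and day 0 ran from 0.45 (Rplp2) to 1.37 (Rpl12). All 4 were above 0, as were 92.6% of the members that passed the filter. Rpl5 and Rpl11, which carry the 5S RNA and restrain Mdm2 when free, differed by 0.74 and 1.25. Rpl4, Rpl17 and Rpl39 line the exit tunnel and differed by 0.49, 1.02 and 0.81. Fau and Rps27a are made as fusions to a ubiquitin-like protein and to ubiquitin, and differed by 0.97 and 1.08.

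A list of genes mutated in Diamond-Blackfan anaemia held 9 members, among them Rps19, Rps24 and Rpl35a. All 9 were higher in Nons than at day 0, as were 92.6% of the 81 members that passed the filter. Their median was 0.81, next to 0.63 for all members, with a range from 0.48 (Rps26) to 1.25 (Rpl11). Rpl10a, Rpl38, Rps7 and Rps25, proteins described as unequal in amount between ribosomes of ES cells, had a median of 0.76 and a range from 0.54 (Rpl38) to 0.92 (Rps7). Rps6, the phosphorylation target of the S6 kinases, was 0.40 higher and Rpsa, also known as a laminin receptor, 0.61 higher.

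In the Smarca4.4 library the ribosomal protein genes were lower than in Nons almost without exception, by a small amount. Their median difference was -0.27 on the log2 CPM scale, against 0.04 for all genes, and 78 of 81 (96.3%) were below 0, against 43.5% of all genes. None differed by 2-fold, as did 1.19% of all genes, but 0 of the 1410 other genes with a mean log2 CPM of at least 7. The medians of the large and the small subunit were -0.27 and -0.28, and all 33 small subunit genes were below 0. Above 0 were Rpl10l (0.32), Rpl21 (0.04) and Rpl29 (0.003), and the value of Rpl29 turned below 0 under each of the 3 other scalings tried.

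The lowest member in Smarca4.4 was Rps10, a small subunit protein at the mRNA entry side. Its log2 CPM was 8.16 at day 0, 9.26 with Nons, 8.78 with Smarca4.4 and 8.90 with Smarca4.6, so that Smarca4.4 was at 71.9% of Nons, a difference of -0.48 (-0.50 to -0.45). Rps2 was likewise at -0.48, followed by Fau (-0.46), Rpl12 (-0.46) and Rpl41 (-0.44). Fau had 8.53, 9.50, 9.04 and 9.10 in the order of the libraries above, and Rpl12 had 9.12, 10.49, 10.03 and 10.18. In each of these, picked as lowest against Nons in Smarca4.4, the knockdown libraries lay between day 0 and Nons.

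In the Smarca4.6 library, whose Smarca4 level was the less reduced, the median difference from Nons was -0.18, against 0.06 for all genes. Of the 81 members, 75 (92.6%) were below 0, against 41.1% of all genes, and again none differed by 2-fold, as did 1.82% of all genes. Of the 1410 other genes with a mean log2 CPM of at least 7, 1 was at least 2-fold higher and 1 at least 2-fold lower. The 2 subunits each had a median of -0.18. Rpl39l was lowest at -0.62 (-1.05 to -0.21), on 141 reads in Nons and 73 in Smarca4.6, and its interval is accordingly wide. It was followed by Fau and Rps2, both at -0.40, Rpl13 (-0.38), Rps15 (-0.36) and Rps10 (-0.36). Above 0 were Rpl29 (0.28), Rpl21 (0.21), Rpl10l (0.07), Rps21 (0.06), Rps27a (0.03) and Rps27l (0.02). The last 3 turned below 0 when the libraries were centred on the median autosomal gene, as did Rps27a and Rps27l with upper quartile scaling.

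Both knockdown comparisons use the same Nons library, so its own deviation, if it has any, is in both. The knockdown libraries can be compared with each other without it. There, 68 of 81 members (84.0%) were lower in Smarca4.4 than in Smarca4.6, against 55.8% of all genes, with a median of -0.09 against -0.03. This was not particular to them. Of the gene lists described below, 97.3% of ribosome biogenesis genes and 87.0% of mitochondrial ribosomal protein symbols were also lower in Smarca4.4. So were 72.4% of Eif entries and 61.9% of other TOP genes, while S6 and RSK kinases were at 50%. Among the members, Rps27a (-0.36), Rps27 (-0.35), Rpl41 (-0.29) and Rps14 (-0.29) were the lowest. Rps27a had 10.24 in Smarca4.4 and 10.61 in Smarca4.6, next to 10.58 in Nons and 9.50 at day 0. Rpl39l (0.42) and Rpl10l (0.24) were the highest. The order of the members by level was nearly the same in the day 6 libraries, and Pearson's r over the 81 members was 0.998 between Smarca4.4 and Smarca4.6 and 0.936 between day 0 and Nons, as a description across genes that share 1 library each.

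**Figure D3:**
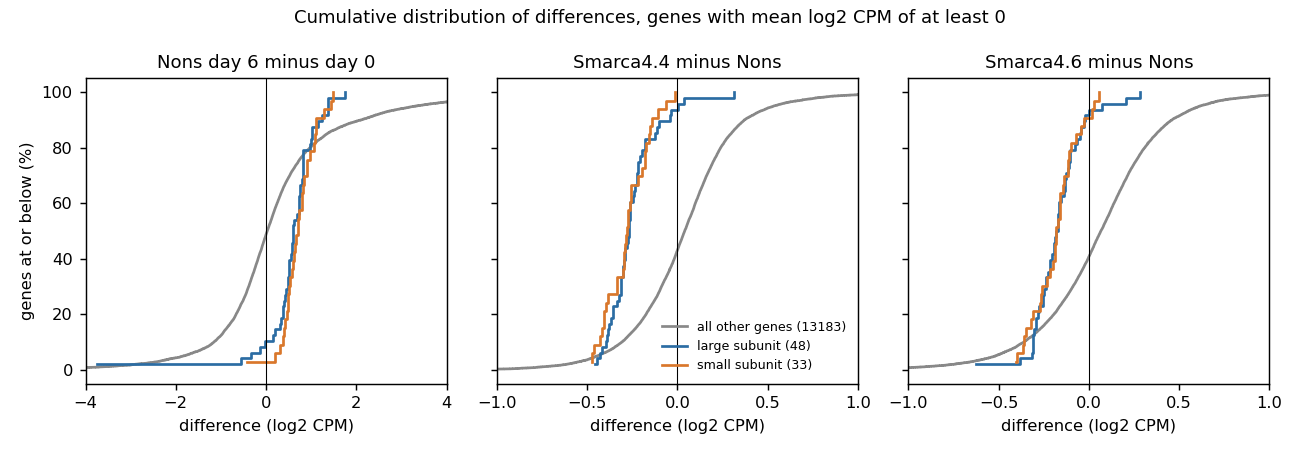
Cumulative share of genes (percent, vertical axis) at or below a difference in log2 CPM (horizontal axis) for 48 large subunit genes, 33 small subunit genes and all other genes that passed the filter, in 3 comparisons. The curves of both subunits overlap and are steeper than that of the other genes, right of it around the median for Nons minus day 0 (0.59 and 0.71) and left of it for Smarca4.4 (-0.27 and -0.28) and Smarca4.6 (-0.18 for each).

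Ribosomal protein mRNAs are short, and short transcripts as a group lay on the same side of the median of all genes. The merged exons of the members had a median length of 976 bases. The 764 genes of up to 1000 exon bases had median differences of 0.24 for Nons minus day 0, -0.08 for Smarca4.4 minus Nons and -0.003 for Smarca4.6 minus Nons, while the 9823 genes of over 2000 bases were at -0.03, 0.06 and 0.08. Against the short genes in place of all genes, the excess of the members shrank from 0.60 to 0.40, from -0.31 to -0.19 and from -0.24 to -0.18. The part of RNA quality or fragment size in these differences was not tested.

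The genes Rps4x, Rpl10, Rpl36a and Rpl39 are X-linked, and female cells silence 1 X chromosome as they differentiate. Rps4x, a small subunit gene, had the second most reads of all members at day 0, with a log2 CPM of 11.10, and 10.68 with Nons, 10.67 with Smarca4.4 and 10.66 with Smarca4.6. Rpl10, which completes the large subunit near the peptidyl transferase centre, had 10.29, 10.15, 10.12 and 10.13. These 2 were highest at day 0, unlike most members, and nearly level over the day 6 libraries.

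The other 2 X-linked members were lowest at day 0 and highest in Nons, like most autosomal ones. The difference of Rpl36a between Nons and day 0 lay below 0.48, the lower quartile of the autosomal members. Rpl39, a short protein of the exit tunnel, had 8.48 at day 0, 9.29 with Nons, 9.03 with Smarca4.4 and 9.16 with Smarca4.6, and Rpl36a had 8.76, 9.14, 8.91 and 9.12. Differences between Nons and day 0 were thus -0.42 (-0.44 to -0.40) for Rps4x, -0.14 (-0.16 to -0.12) for Rpl10, 0.37 (0.34 to 0.41) for Rpl36a and 0.81 (0.77 to 0.85) for Rpl39. Their median of 0.12 lay between that of all 498 X-linked genes (-0.66) and that of the 77 autosomal members (0.67). The 4 together held 0.425% of the reads at day 0, then 0.397% (Nons), 0.375% (Smarca4.4) and 0.386% (Smarca4.6).

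Against Nons, the 4 X-linked members had a median difference of -0.13 in Smarca4.4 and -0.03 in Smarca4.6, where all X-linked genes had 0.19 and 0.14. In Smarca4.4 Rps4x and Rpl10 were closest to 0, at -0.01 and -0.03, while Rpl36a was at -0.23 and Rpl39 at -0.26. In Smarca4.6 Rpl36a was at -0.02, Rps4x and Rpl10 were both at -0.03, and Rpl39 was at -0.13. All 4 were below 0 in both knockdown libraries. So were 96.3% (Smarca4.4) and 92.6% (Smarca4.6) of all members, but 24.7% and 33.1% of all X-linked genes. The counting intervals include 0 for Rps4x in Smarca4.4 (-0.03 to 0.001) and Rpl36a in Smarca4.6 (-0.05 to 0.01). The values join both alleles, so the active and the inactive X chromosome were not separated.

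Paralogues followed their parent genes in some pairs and not in others. Rpl10l, an intronless gene on chromosome 12, had 1788 reads at day 0, then 330 (Nons), 423 (Smarca4.4) and 277 (Smarca4.6), or log2 CPM values of 6.59, 2.85, 3.17 and 2.92. The difference between Nons and day 0 was -3.74 (-3.91 to -3.57), or 7.50% of the day 0 level, the largest difference of any member that passed the filter. Per kilobase of exon, Rpl10l made up 6.34% of the sum of Rpl10 and Rpl10l at day 0 and 0.556%, 0.707% and 0.596% in the day 6 libraries. Of its 75-base windows, 0.316% occur without a mismatch in the annotated transcript of another gene.

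Rpl39l was low throughout, with 84 reads at day 0 and 141, 126 and 73 at day 6, and made up 0.923% of its pair with Rpl39 per kilobase at day 0 and between 0.256% and 0.375% at day 6. Rpl3l, the copy of Rpl3 known from heart and skeletal muscle, had between 21 and 27 reads in each library, with log2 CPM values of 0.54 at day 0 and -0.87, -0.97 and -0.80 at day 6. Both were highest at day 0 on the CPM scale. Rpl3 itself had 10.51, 11.03, 10.76 and 10.84.

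Rps27l is induced by p53 in other settings. Its log2 CPM was 7.67 at day 0, 8.74 with Nons, 8.60 with Smarca4.4 and 8.76 with Smarca4.6. The difference from Nons in Smarca4.4 was -0.14, against -0.40 for Rps27. It made up 42.8% of the pair per kilobase at day 0 and 36.1%, 40.3% and 37.1% at day 6. Among copies whose symbols fall outside the rule, Rpl22l1 had 7.12 at day 0 and 8.74, 8.54 and 8.87 at day 6, where Rpl22 had 8.52, 9.88, 9.46 and 9.59. Both were lowest at day 0, but in Smarca4.6 Rpl22l1 differed from Nons by 0.13 (0.10 to 0.16) and Rpl22 by -0.29 (-0.31 to -0.27). Rpl22l1 made up 58.3% of that pair at day 0 and from 62.5% to 69.1% at day 6. Rps4y2, an autosomal copy of Rps4x on chromosome 6 despite its symbol, had 8.13, 6.97, 7.07 and 7.17, and Rpl7l1 had 8.01, 7.36, 7.65 and 7.81, both highest at day 0. Rpl36al stayed between 7.13 and 7.27 in all 4 libraries, while its X-linked relative Rpl36a ran from 8.76 to 9.14.

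**Figure D4:**
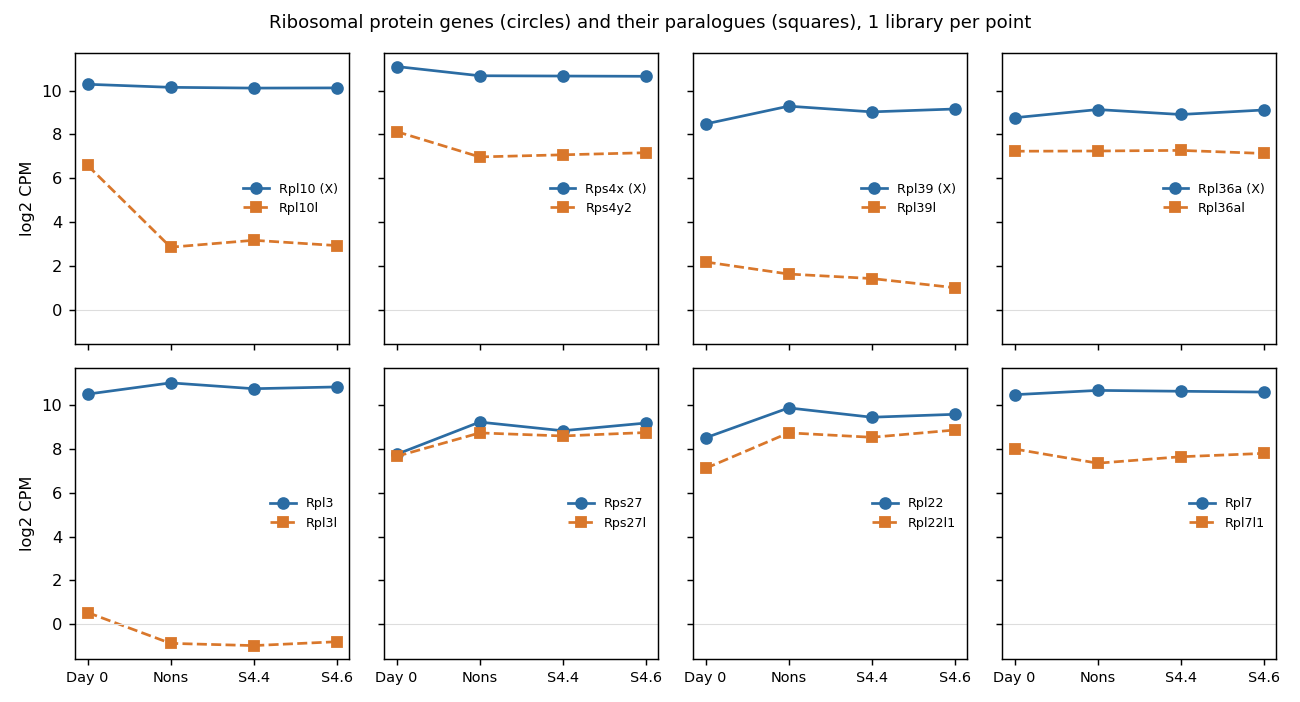
Level in log2 CPM (vertical axis, same scale in each panel) of 8 ribosomal protein genes (circles, solid) and their paralogues (squares, dashed) in the 4 libraries (S4.4 and S4.6 stand for Smarca4.4 and Smarca4.6; X marks X-linked genes). Rpl10l goes from 6.59 at day 0 to 2.85 in Nons while Rpl10 goes from 10.29 to 10.15, and Rps27l and Rpl22l1, like Rps27 and Rpl22, are lowest at day 0.

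Levels per kilobase of exon varied widely, although most of the proteins are needed in equal numbers. The length used is that of the merged exons of a gene's annotated transcripts, which can exceed that of its mRNA. Rps20, with 3706 such bases, had 936 CPM in Nons but 7.98 as log2 CPM per kilobase. How much of the spread comes from this length was not tested, and the percentages of pairs per kilobase carry the same limit. The median over the members that passed was 8.81 at day 0 and 9.58 in Nons as log2 CPM per kilobase. The highest in Nons were Rplp1 (11.70), Rps18 (11.42), Rpl13a (11.40), Rpl4 (11.13) and Rps14 (10.96), and the lowest were Rpl39l (1.89), Rpl21 (2.24), Rpl10l (2.82), Rpl29 (3.75) and Rpl17 (7.03). Rpl21 and Rpl29, both core large subunit genes, had between 265 and 550 and between 178 and 507 reads in each library, far below the other core members. Whether reads that match several places were counted was not stated. Of the 75-base windows of Rpl21 and Rpl29, pooled over all their annotated transcripts, 11.3% and 28.2% occur in the annotated transcript of another gene. Pseudogenes that are not annotated as transcripts are not in that figure. Rpl21 had 3467 windows but 2402 merged exon bases, and the share within its mature mRNA alone was not computed and can be higher. The pooled share was highest for Rpl23a (78.1%), Rpl35 (77.3%), Rpl36 (70.9%) and Rps3a (60.2%), whose levels are uncertain for this reason. Of the members, 18 overlap another listed gene, and for Rpl23a the gene on the other strand, Tlcd1, had 52.5% of its CPM in Nons. Without a stated strand setting the reads of such pairs cannot be told apart.

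Other genes of translation were compared to see how far the pattern extended. The same Nons library is in all 3 comparisons, so the signs of a list are not independent across them. The 21 other genes with known TOP mRNAs had medians of 0.29 for Nons minus day 0, -0.18 for Smarca4.4 minus Nons and -0.07 for Smarca4.6 minus Nons, the same signs as the members. Of them 18, 3 and 7 were above 0, against 51.4%, 56.5% and 58.9% of all genes. Eef2, the translocation factor, had a log2 CPM of 11.58 at day 0, 12.79 with Nons, 12.34 with Smarca4.4 and 12.24 with Smarca4.6, and Eef1a1, which delivers tRNA, had 13.20, 13.76, 13.48 and 13.48. Gnb2l1, whose product Rack1 is a small subunit protein without an Rps symbol, had 10.41, 11.31, 10.96 and 11.10. These 3 were lowest at day 0 and highest in Nons, as were most members.

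Genes that make the ribosome had the opposite signs from the genes that form it in the 3 comparisons that use Nons. Between Smarca4.4 and Smarca4.6 both had negative medians (-0.17 and -0.09). The 37 ribosome biogenesis genes had medians of -0.42, 0.19 and 0.35 in the 3 comparisons, with 30 of 37 below 0 for Nons minus day 0, 33 above 0 in Smarca4.4 and 36 above 0 in Smarca4.6. Of all genes 48.6% were below 0 in the first comparison, and 56.5% and 58.9% above 0 in the others. Ncl (nucleolin), an abundant nucleolar protein, had a log2 CPM of 11.60 at day 0, 10.93 with Nons, 11.23 with Smarca4.4 and 11.36 with Smarca4.6. Bop1, which processes the large subunit RNA, had 6.98, 6.29, 6.60 and 7.07, and Polr1b, a subunit of RNA polymerase I, had 6.99, 6.14, 6.49 and 6.67. In these 3 Nons was the lowest library. Dkc1 (-1.29) and Ubtf (-1.07) were the 2 of the 37 at least 2-fold lower in Nons than at day 0, against 12.3% of all genes. Dkc1 is X-linked, and all 498 X-linked genes had a median of -0.66 in that comparison.

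Mitochondrial ribosomal protein genes and initiation factors lay nearer to all genes. The 77 symbols of mitochondrial ribosomal proteins, 1 of them a pseudogene, had medians of -0.02, -0.001 and 0.12, and the first of these turned above 0 with scaling to the reads outside the members or to the upper quartile. The 76 others had -0.02, -0.000293 and 0.12. The 58 entries with an Eif symbol that passed, of 61 listed, had -0.14, 0.06 and 0.16, but include Argonaute genes (Eif2c) and kinases (Eif2ak). Without these and repeated symbols, 49 initiation factor genes had -0.07, 0.04 and 0.17. The 16 regulators of mTORC1 and TOP mRNAs had 0.01, which turned below 0 with centring on the median autosomal gene, 0.06 and 0.10. Among these, Mycn and Myc, transcription factors that drive ribosome genes, were at least 2-fold higher in Smarca4.6 than in Nons. Mycn had 7.45, 5.52, 5.86 and 6.59, and Myc had 2.14, 4.94, 5.73 and 6.02 in the order of the libraries above. Larp1 (8.50, 8.50, 8.62 and 8.63) and Mtor (6.60, 6.44, 6.50 and 6.54) varied by less than 0.2. The 10 S6 and RSK kinase genes, left out by the rule, had medians of 0.10, -0.01 and 0.08.

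**Figure D5:**
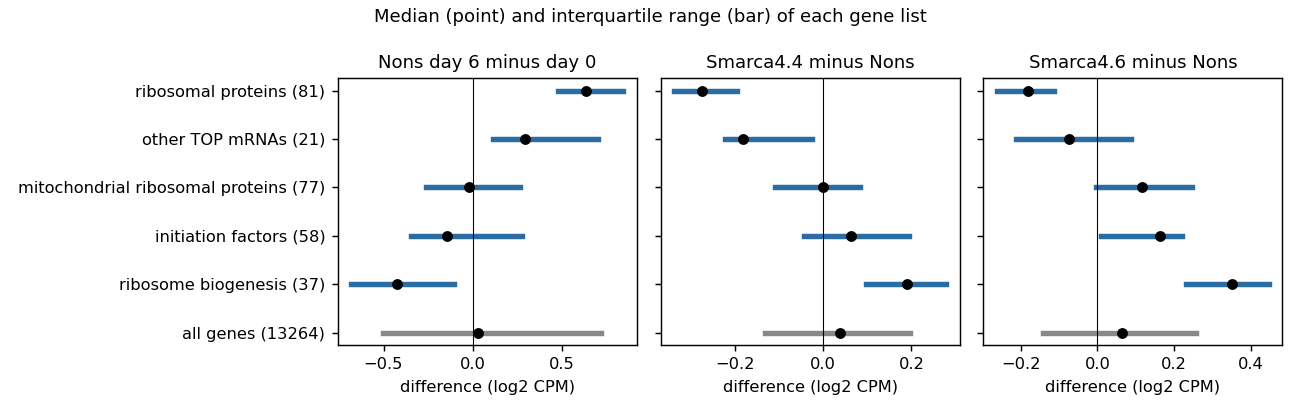
Median (point) and interquartile range (bar) of differences in log2 CPM for the ribosomal protein genes, 4 other gene lists (initiation factors are all entries with an Eif symbol) and all genes that passed the filter (number of genes in parentheses), in 3 comparisons with separate horizontal scales. Ribosomal protein genes have the highest median for Nons minus day 0 (0.63) and the lowest in Smarca4.4 and Smarca4.6 (-0.27 and -0.18), and ribosome biogenesis genes lie at the other end (-0.42, 0.19 and 0.35).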

How the data were processed

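RNA-seq was performed on 4 libraries of 1 group each. The authors trimmed paired-end reads with trim_galore, aligned them to mm10 with strain-specific positions masked (HISAT2 per the labels, the methods also name tophat) and counted reads per gene in SeqMonk. They deposited log2 CPM, both alleles joined. Strand and multiple-mapping settings were not given in the sources used here. Reads per gene were recovered from the steps of the back-transformed values. Differences are of the log2 CPM as deposited. Genes with a mean of at least 0 were kept, and differences of at least 2-fold counted. With no replicates no test was run. Precision is given as exact (Clopper-Pearson) intervals of reads. Gene positions are those of the table. Exon lengths and 75-base windows came from GENCODE M21 (GRCm38) and promoters from RefSeq (GRCm38.p6).

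Members, lists and alternatives were chosen with earlier results of these data known. Genes named are Smarca4, the X-linked members, paralogues and their parents, fixed functional groups, the 5 highest and 5 lowest members per comparison and in level per kilobase, members at least 2-fold different, and other-list genes at least 2-fold different between day 6 libraries. Translation genes named beyond these (Eef2, Eef1a1, Ncl, Bop1, Polr1b, Dkc1, Ubtf, Larp1, Mtor) and Rpl34 were picked after their values were seen. A few genes that this rule would name are not reported here. Alternatives were other filters, a pseudocount, 3 scalings, other member sets, backgrounds and denominators. The computations were tested on simulated data. Python 3.11.15, numpy 2.4.6, pandas 2.3.3, scipy 1.17.1 and matplotlib 3.10.9 were used.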

Additional observations from a re-analysis of the deposited data

How the results depend on the processing

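No paired analysis was possible because no group holds more than 1 library. The medians of the members, the subunits and the X-linked members kept their sign under the filters, pseudocount, scalings and member sets tried. Centring on the median autosomal gene and upper quartile scaling moved the member median to -0.31 and -0.30 for Smarca4.4 and to -0.24 and -0.23 for Smarca4.6. For Smarca4.6 these 2 settings gave -0.24 and -0.23 for the large subunit and -0.25 and -0.24 for the small. The member median minus that of a background, 0.60, -0.31 and -0.24 against all genes, was 0.40, -0.19 and -0.18 against genes of up to 1000 exon bases, and 0.47, -0.24 and -0.19 against genes of mean log2 CPM of at least 7 and up to 2000 exon bases. Both backgrounds, and the scalings and narrower versions of the other lists, were added after the data were seen. Among those lists, the median of mitochondrial ribosomal proteins for Nons minus day 0 turned to 0.0212 (total without members) and 0.0614 (upper quartile), that of mTORC1 and TOP regulators to -0.0367 (centring), and that of ribosome biogenesis genes in Smarca4.6 moved to 0.29 (centring). Adding the pseudogenes gave shares of reads of 4.65%, 7.49%, 6.19% and 6.59%, and leaving mitochondrially encoded genes out of the denominator gave 5.04%, 8.14%, 6.72% and 7.08%, for day 0, Nons, Smarca4.4 and Smarca4.6.

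Single members near 0 changed sign. Rpl37a for Nons minus day 0 was 0.0138 when scaled to the total without members and 0.0541 with upper quartile scaling. Rpl29 in Smarca4.4 was -0.0291 with centring, -0.0165 with the total without members and -0.0211 with upper quartile scaling. In Smarca4.6, centring gave -0.00365 for Rps21, -0.0442 for Rps27l and -0.0334 for Rps27a, and upper quartile scaling gave -0.0347 for Rps27l and -0.0238 for Rps27a. The causes of these moves are the scalings themselves. Depth limits Rpl39l and Rpl3l, with at most 141 reads in any library.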
